A study of Rattus norvegicus with 9 samples.

Results

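Interferon response genes are the genes that a cell switches on after it has bound an interferon, the secreted signal of virus infection. The genes described here were chosen by a list of 37 symbols, matched to the gene names of the deposited table. A row under its symbol was found for 36 of them among 32623 gene rows, and Oas1b was not analysed here. All 36 had a mean of at least 1 FPKM (fragments per kilobase of transcript, scaled for depth) over the libraries and so were among the 13886 genes tested.

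The study measured poly(A) RNA from the femur of Sprague-Dawley rats in 9 libraries, labelled as wild type in genotype. The 3 control libraries came from rats without further treatment in the labels, the 3 ovariectomized libraries from rats whose ovaries had been removed, and the 3 treated libraries from rats given Desertliving Cistanche, a desert herb of Chinese medicine. The series title places the herb in ovariectomized rats as a model of bone loss after the menopause, whereas the treated labels name the herb alone. No age, dose, duration or sham operation is given by the labels. The labels do not say that each library is a separate animal, so p-values measure the spread between these libraries. A femur sample mixes bone with marrow, and in such bulk RNA more cells of a type and more RNA per cell cannot be told apart.

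Type I interferons bind the receptor of Ifnar1 and Ifnar2, whose kinases Jak1 and Tyk2 activate Stat2. Stat2 joins Irf9 in a complex that binds a DNA motif near its target genes, the interferon-stimulated response element. The products then sense foreign RNA, cut or trap it, or tag proteins with the ubiquitin-like Isg15, and Irf7 feeds back on interferon production. Type II interferon (Ifng) has its own receptor and induces antigen presentation. In bone, interferon signalling is known as a brake on osteoclast formation, and marrow macrophages and dendritic cells are among its sources and targets.

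The response element is the sequence that the genes could have in common, so the starts of the genes were read. RefSeq promoters (build GRCr8, 250 bases before to 50 after the start) were matched by symbol for 26 of the 36 genes. Mx2, Isg15, Oas2, Usp18, Dhx58, Ifit2, Rtp4, Ddx58, Zbp1 and Ifit1 were not matched. The core of the element, GAAA, any 2 bases and GAAA on either strand, stood in 16 of the 26 promoters (61.5%), against 3.92% of all 33469 promoter entries. The 10 promoters without it were those of Mx1, Herc6, Parp9, Oasl, Ifi35, Stat2, Irf1, Cmpk2, Irf9 and Trim25, and Mx1 had the largest lead of all 36 genes in the library described below. A match describes these letters in this window and is not evidence of binding.

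The matched sites are shown for genes whose library pattern is described further on, each with 5 flanking bases, turned so that the motif reads GAAA first, with the match in capitals. Positions count from the start site, -1 being the base before it.
Irf7 (-69 to -60, antisense, chr1:205800078-205800097): ctcggGAAAATGAAAcctaa
Ifit3 (-44 to -35, antisense, chr1:241527277-241527296): aactaGAAACTGAAAcagac
Oas1a (-41 to -26, sense, 2 overlapping matches, chr12:41330420-41330445): ctcggGAAATGGAAACTGAAAatctt
Xaf1 (-11 to -2, sense, chr10:57415919-57415938): gcaaaGAAACAGAAActcca
Eif2ak2 (-16 to -7, sense, chr6:21941133-21941152): gccggGAAAACGAAAcagag
Ifih1 (-59 to -50, sense, chr3:67684013-67684032): gaatcGAAACAGAAAccgat
Bst2 (-131 to -116, sense, 2 overlapping matches, chr16:18255078-18255103): tccagGAAAATGAAACTGAAAggtgg
Epsti1 (-35 to -26, sense, chr15:59693361-59693380): aaagaGAAATCGAAActcag

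The whole 250 bases before the start are shown for Irf7, which had its highest value in 1 ovariectomized library like most of the genes, for Ifi27, whose control libraries did not overlap with those of either other group, and for Rsad2, which did not have its highest value in that library. Capitals mark the same motif, read here along the gene, so that an antisense match appears as TTTC, 2 bases and TTTC. Irf7 lies on the minus strand (chr1:205800024-205800273), Ifi27 on the plus strand (chr6:128355062-128355311) and Rsad2 on the minus strand (chr6:48788121-48788370).
Irf7: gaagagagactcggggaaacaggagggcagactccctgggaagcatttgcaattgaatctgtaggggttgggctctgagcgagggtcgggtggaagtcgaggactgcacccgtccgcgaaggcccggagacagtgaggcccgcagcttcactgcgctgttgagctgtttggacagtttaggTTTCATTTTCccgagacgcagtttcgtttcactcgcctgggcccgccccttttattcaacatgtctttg
Ifi27: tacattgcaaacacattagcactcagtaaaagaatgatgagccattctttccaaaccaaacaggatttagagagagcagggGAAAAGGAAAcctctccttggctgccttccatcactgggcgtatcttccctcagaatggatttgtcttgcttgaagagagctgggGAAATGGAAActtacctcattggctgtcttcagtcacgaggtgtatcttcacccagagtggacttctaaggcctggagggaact
Rsad2: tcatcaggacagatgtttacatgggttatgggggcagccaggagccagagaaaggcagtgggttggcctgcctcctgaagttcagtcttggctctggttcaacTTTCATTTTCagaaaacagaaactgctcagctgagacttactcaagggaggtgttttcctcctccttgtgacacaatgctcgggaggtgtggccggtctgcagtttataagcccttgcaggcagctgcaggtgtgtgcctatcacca
A match was present in all 3, and Rsad2 shared neither the library pattern of Irf7 nor that of Ifi27.

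Levels are given below as CPM (counts scaled to a common library total) after edgeR's TMM scaling, and levels of different genes are compared only in FPKM, which is per length. Libraries held 54992823 to 66531156 counts. Counts of the 36 genes ran from 148 to 42161 in a library, for which sampling alone gives an SD of 8.22% and 0.49%. Of the cell types a femur holds, marker lists of red cell precursors, neutrophils, osteoblasts and muscle were all detected, muscle most unevenly (354.9 to 5184 summed CPM).

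One library stood above the others. The 36 genes summed to 4496 CPM in ovariectomized replicate 1 and to 1606 to 2134 CPM in the other 8 libraries. That library held the highest value for 34 of the 36 genes (94.4%), whereas it was the highest for 9.58% of all genes tested. Its value was over 2 times that of the next library for 20 of the 36 genes, against 0.338% of all genes tested (47 genes), and over 1.5 times for 27, against 0.792%. No other library had 1.5 times the next value for any of the 36 genes. Ranked by that ratio among 13886 genes, Mx1, Mx2, Isg15, Oas2, Usp18 and Dhx58 held ranks 1 to 6, and 22 of the top 50 were interferon response genes.

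**Figure D1:**
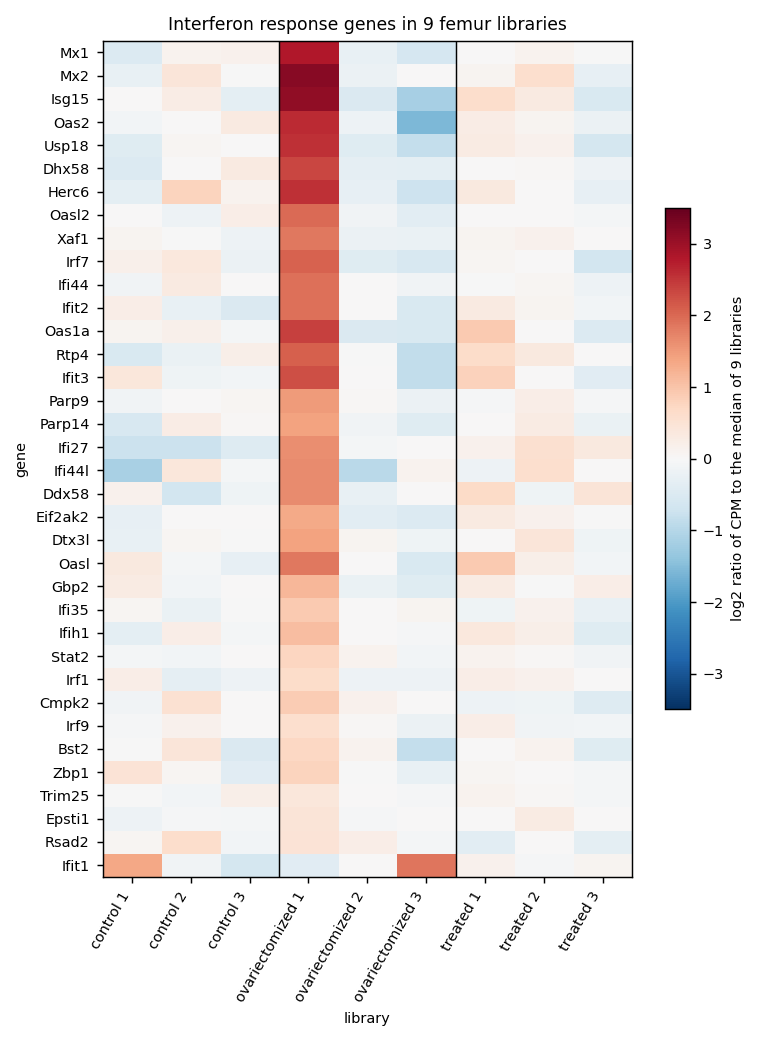
Heat map of the 36 interferon response genes (rows, ordered by the ratio of ovariectomized replicate 1 to the highest other library) in the 9 libraries (columns), coloured by the log2 ratio of CPM to the gene's median over the libraries. Ovariectomized replicate 1 is the highest column for 34 genes, and Rsad2 and Ifit1 at the bottom are the exceptions.

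The antiviral GTPases of the Mx family, which trap virus particles, stood furthest apart. Mx1 (chromosome 11, 37891156 to 37914983; deposited coordinates are of a build that no label or header names) had 18.7, 28.3 and 28.8 CPM in controls, 183, 21.9 and 17.4 CPM in ovariectomized replicates 1, 2 and 3, and 26.2, 28.7 and 25.8 CPM in treated rats. Mx2 had 8.48, 13.7 and 10.03 CPM in controls, 92.0, 8.75 and 10.1 CPM after ovariectomy, and 10.9, 15.2 and 8.29 CPM in treated rats. Both genes were over 6.0 times the next library in ovariectomized replicate 1, and the other 2 ovariectomized libraries lay within or below the range of the rest. The groups overlapped for both. Mx1 had an edgeR log2 fold change of 1.55 ± 0.80 (SE; adjusted p = 0.980) for ovariectomized against control rats and of -1.46 ± 0.80 (adjusted p = 0.936) for treated against ovariectomized rats. Without ovariectomized replicate 1 these became -0.36 and 0.45.

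The system built on Isg15, a ubiquitin-like tag, showed the same high library in all 4 of its genes. Isg15 itself (chromosome 5, 173624310 to 173626248) had 11.6, 13.8 and 9.09 CPM in controls, 99.5, 8.25 and 5.19 CPM after ovariectomy, and 17.7, 14.4 and 8.08 CPM in treated rats. Usp18, the protease that removes Isg15 and dampens the receptor, had 10.4, 14.5 and 13.8 CPM in controls, 82.0, 10.3 and 7.74 CPM after ovariectomy, and 16.9, 15.3 and 9.03 CPM in treated rats. Herc6, a ligase that attaches Isg15 in rodents, had 11.5, 24.7 and 15.9 CPM in controls, 84.8, 11.9 and 8.74 CPM after ovariectomy, and 18.3, 14.5 and 11.8 CPM in treated rats. For these 3 genes the lowest library was also an ovariectomized one, replicate 3, so the widest span lay inside 1 group. Trim25, a ligase that acts on the RNA sensor Ddx58, stood least apart, with 72.9 CPM in ovariectomized replicate 1 and 51.7 to 62.9 CPM elsewhere. Isg15 had log2 fold changes of 1.71 ± 0.98 (SE; edgeR adjusted p = 1.0) for ovariectomized against control rats and of -1.49 ± 0.97 (adjusted p = 0.945) for treated against ovariectomized rats, and without ovariectomized replicate 1 of -0.78 and 0.995.

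The oligoadenylate synthetases make the second messenger that activates the RNA-cutting enzyme RNase L. Oas2 had 6.69, 7.15 and 8.94 CPM in controls, 44.1, 6.36 and 2.39 CPM after ovariectomy, and 8.59, 7.61 and 6.18 CPM in treated rats. Oasl2 had 53.9, 47.1 and 62.4 CPM in controls, 211, 49.0 and 41.2 CPM after ovariectomy, and 53.1, 54.1 and 50.4 CPM in treated rats. All 4 genes of the family that were on the list and had a row peaked in ovariectomized replicate 1, at 1.91 (Oasl) to 4.93 (Oas2) times the next library. In Oas1a and Oasl the next library was treated replicate 1, with 26.1 and 47.7 CPM. Reads of near-identical copies in this family could be shared between rows, so the split between its genes is uncertain.

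Sensors of foreign RNA and DNA had mean levels of 4.58 FPKM (Ddx58) to 15.3 FPKM (Eif2ak2) and all 5 peaked in the same library. Ddx58, the sensor RIG-I, had 7.43, 4.34 and 6.01 CPM in controls, 21.3, 5.63 and 6.72 CPM after ovariectomy, and 10.6, 6.04 and 9.17 CPM in treated rats. Ifih1, the sensor MDA5 of long double-stranded RNA, had 21.1, 30.9 and 25.3 CPM in controls, 56.4, 26.6 and 25.9 CPM after ovariectomy, and 34.2, 30.6 and 19.8 CPM in treated rats. Dhx58, a relative that tunes both sensors, had 9.08, 12.5 and 15.7 CPM in controls, 63.6, 10.1 and 9.89 CPM after ovariectomy, and 12.6, 12.9 and 11.1 CPM in treated rats. Dhx58 stood 4.05 times above the next library, more than the sensors it tunes, at 2.0 for Ddx58 and 1.65 for Ifih1. Eif2ak2, the kinase PKR that halts translation, had 46.0, 55.9 and 56.3 CPM in controls, 139, 43.6 and 39.8 CPM after ovariectomy, and 69.8, 62.2 and 55.5 CPM in treated rats. Zbp1, a sensor of unusual nucleic acid helices, varied among controls (24.7 to 45.6 CPM) nearly up to its 55.3 CPM in ovariectomized replicate 1.

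The transcription factors differed in how far they stood apart. Irf7 (chromosome 1, 214248837 to 214252456), the factor that amplifies interferon production, had 115, 132 and 87.7 CPM in controls, 428, 75.5 and 69.0 CPM after ovariectomy, and 106, 102 and 64.9 CPM in treated rats. Stat2 had 116, 114 and 122 CPM in controls, 208, 133 and 116 CPM after ovariectomy, and 133, 126 and 113 CPM in treated rats. Irf9 had 97.2, 110 and 99.2 CPM in controls, 148, 103 and 86.8 CPM after ovariectomy, and 117, 90.8 and 93.1 CPM in treated rats. Irf7 was thus 3.24 times the next library in ovariectomized replicate 1, and Stat2 and Irf9, whose products carry the signal, 1.57 and 1.27 times. Irf1, a factor shared with type II interferon, had 84.5, 57.8 and 63.0 CPM in controls, 112, 64.1 and 64.1 CPM after ovariectomy, and 85.2, 80.4 and 71.9 CPM in treated rats, a ratio of 1.32. In edgeR, Irf7 had log2 fold changes of 0.77 ± 0.65 (SE; adjusted p = 1.0) for ovariectomized against control rats and of -1.07 ± 0.65 (adjusted p = 0.945) for treated against ovariectomized rats, which were -0.63 and 0.33 without that library.

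Other induced genes followed with less known roles. Xaf1, a partner of cell death regulators, had 14.2, 13.1 and 11.6 CPM in controls, 47.8, 11.5 and 11.3 CPM after ovariectomy, and 14.0, 14.5 and 13.2 CPM in treated rats. Ifi44 had 13.8, 18.6 and 15.2 CPM in controls, 57.6, 15 and 13.7 CPM after ovariectomy, and 14.9, 15.7 and 13.3 CPM in treated rats. Outside the high library these genes were steady, the other 8 libraries spanning 1.28 times for Xaf1 and 1.40 times for Ifi44. Parp9, Dtx3l and Parp14, of which Parp9 and Dtx3l work as a pair that modifies histones and viral proteins, were 1.97 to 2.38 times the next library. Bst2, the tether that holds budding virus on the cell, had 41.2, 55.7 and 28.9 CPM in controls, 67.9, 45.3 and 23.2 CPM after ovariectomy, and 41.3, 44.5 and 30.5 CPM in treated rats, so that its spread over the other 8 libraries (2.40 times) exceeded its lead in the high one (1.22 times). Ifi35, Rtp4, Ifi44l and Gbp2 also peaked there, at 1.72, 2.77, 2.07 and 1.83 times the next library.

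**Figure D2:**
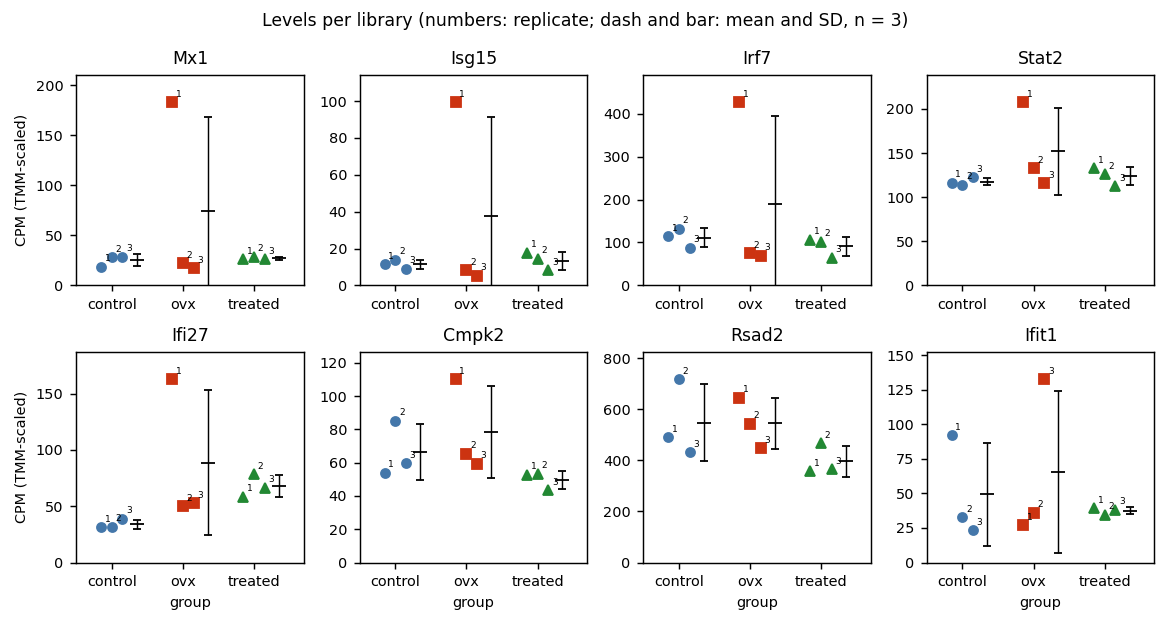
Levels of 8 genes in CPM (y axis, from 0) in control, ovariectomized (ovx) and treated libraries, 1 point per library numbered by replicate, with the mean and SD of each group beside the points (lower ends of bars stop at 0). Ovariectomized replicate 1 is alone at the top for Mx1, Isg15, Irf7, Stat2, Ifi27 and Cmpk2, while Rsad2 peaks in control replicate 2 and Ifit1 in ovariectomized replicate 3.

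The IFIT family, proteins that bind foreign RNA ends, was split. Ifit2 had 36.1, 25.6 and 21.9 CPM in controls, 117, 30.8 and 21.3 CPM after ovariectomy, and 38.3, 32.8 and 28.7 CPM in treated rats. Ifit3 peaked in the same library, at 260 CPM, with 30.3 to 95.3 CPM in the other 8. Ifit1 (chromosome 1, 252944103 to 252946170), on the same chromosome as Ifit3 (252906234 to 252911382), had 92.3, 33.0 and 23.3 CPM in controls, 27.1, 35.9 and 133 CPM after ovariectomy, and 39.5, 34.7 and 38.3 CPM in treated rats. Ifit1 was therefore highest in ovariectomized replicate 3 and control replicate 1, and in ovariectomized replicate 1 it was below 7 of the other 8 libraries. The groups overlapped for all 3 genes in each comparison that involves the ovariectomized libraries.

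Rsad2, which encodes viperin, an enzyme that makes a chain-terminating nucleotide against viruses, was the other exception. It had the highest mean level of the 36 genes, 129 FPKM, against 3.56 to 76.4 FPKM for the others. Rsad2 (chromosome 6, 45655954 to 45669148) had 491, 718 and 433 CPM in controls, 645, 543 and 447 CPM after ovariectomy, and 358, 467 and 367 CPM in treated rats. Its highest library was control replicate 2, and 2 of the 3 treated libraries were the lowest of all 9. Cmpk2, a nucleotide kinase whose gene is the neighbour of Rsad2 (chromosome 6, 45683234 to 45694822, opposite strand), had 53.9, 85.2 and 59.7 CPM in controls, 110, 65.4 and 59.3 CPM after ovariectomy, and 52.7, 53.2 and 43.6 CPM in treated rats. All 3 treated libraries lay below all control and all ovariectomized libraries for Cmpk2. Treated against control rats, the edgeR log2 fold change was -0.46 ± 0.21 (SE; adjusted p = 0.575) for Rsad2 and -0.41 ± 0.25 (adjusted p = 0.681) for Cmpk2. Treated against ovariectomized rats, it was -0.46 ± 0.21 (adjusted p = 0.929) for Rsad2 and -0.65 ± 0.26 (adjusted p = 0.929) for Cmpk2, and without ovariectomized replicate 1 Cmpk2 stood at -0.32. Without control replicate 2, treated against control rats were at -0.22 for Rsad2 and -0.19 for Cmpk2. Ovariectomized and control rats had nearly equal mean Rsad2 levels, with a log2 fold change of -0.01 ± 0.21 (adjusted p = 1.0).

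Ovariectomized rats were compared with controls to ask what loss of the ovaries does in the femur. None of the 36 genes passed an edgeR adjusted p under 0.05, as 0% of all 13886 genes did, and 1 (Ifi27) had an unadjusted p under 0.05, as 5.05% of all genes did. DESeq2 called 0 of the 32 genes to which it gave a p, against 0.425% of all genes, and gave none to Isg15, Mx1, Mx2 and Usp18 in any of the 3 comparisons. Fitted changes were upward for 35 of the 36 genes with a median log2 fold change of 0.78, where the median of all genes was -0.004. Without ovariectomized replicate 1, 28 were downward and 8 upward, with a median of -0.18 against -0.009 for all genes, 0 passed, and 4 had an unadjusted p under 0.05, against 6.16% of all genes. Ovariectomized replicates 2 and 3 were both below all 3 controls for 8 genes (Isg15, Oas1a, Oas2, Irf7, Usp18, Xaf1, Gbp2 and Eif2ak2), an arrangement found in 9.13% of all genes, and both above for Ifi27 alone, against 10.6% of all genes. Ovariectomized replicate 3 held the lowest value of the 9 libraries for 17 of the 36 genes, against 9.35% of all genes tested. The same library had the most skeletal muscle marker RNA, 5184 summed CPM against 354.9 to 2742 CPM in the other 8, whose part in the low values was not tested.

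Ifi27 was the one gene whose ovariectomized and control libraries did not overlap, the ovariectomized ones being higher (1 of 36, against 5.02% of all genes), and 0 genes had them lower (3.92% of all genes). The product of Ifi27 is a small protein of mitochondria and the nuclear envelope, and the gene was chosen for description after its values were seen. Ifi27 (chromosome 6, 127327959 to 127334428) had 31.6, 31.7 and 38.8 CPM in controls, 163, 50.1 and 52.9 CPM after ovariectomy, and 58.4, 78.2 and 66.6 CPM in treated rats. All 6 ovariectomized and treated libraries were above all controls. The summed adipocyte markers had the same arrangement, with 428.7 to 1050 CPM in controls, 1140 to 1817 CPM in ovariectomized and 1228 to 2092 CPM in treated rats, and all 6 of their genes had upward estimates in both comparisons with controls (median log2 fold changes of 1.19 and 1.25). Other cell type lists shifted as well. All 7 skeletal muscle genes had upward estimates in both comparisons (median log2 fold changes of 1.67 and 0.63). All 6 erythroid, 8 osteoblast and osteocyte, and 5 cartilage genes had downward estimates in both. The part of these cell types in the Ifi27 values was not tested. The log2 fold change was 1.38 ± 0.42 (SE; edgeR adjusted p = 0.892; DESeq2 adjusted p = 0.0735) for ovariectomized and 0.99 ± 0.42 (edgeR adjusted p = 0.549) for treated against control rats. Without ovariectomized replicate 1 it was 0.60 ± 0.14 (adjusted p = 0.436) and 0.99 ± 0.13 (adjusted p = 0.200). Both comparisons had a p of 0.1 in a 2-sided exact permutation test, the smallest that 3 libraries against 3 can give. Any groups of 3 that do not overlap give this p, so it adds nothing to the lack of overlap. Treated against ovariectomized rats, Ifi27 was at -0.39 ± 0.42 (adjusted p = 0.957) with all libraries and at 0.40 without ovariectomized replicate 1.

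The effect of the herb was examined by setting treated against ovariectomized libraries, a contrast that shares the ovariectomized libraries with the one above, replicate 1 among them. Again 0 of the 36 genes passed in edgeR, as 0% of all genes did, and 0 of 32 in DESeq2, against 0.274% of all genes. At an unadjusted edgeR p under 0.05 there was 1 (Cmpk2), against 5.2% of all genes. Fitted changes were downward for all 36 genes in edgeR and for 32 with limma on log2(FPKM + 1), and the edgeR median was -0.55, where that of all genes was -0.004. Without ovariectomized replicate 1, 31 were upward, with a median of 0.29 against 0.004 for all genes, 0 passed, and 4 had an unadjusted p under 0.05, against 6.45% of all genes. Eif2ak2 had a log2 fold change of -0.25 ± 0.43 (adjusted p = 0.971) with that library and of 0.58 ± 0.13 (adjusted p = 0.748) without it. Without that library its unadjusted edgeR p of 0.0026 was the smallest of the 36 genes. Against controls, Eif2ak2 in ovariectomized rats was at 0.49 ± 0.43 (adjusted p = 1.0) with it and at -0.34 ± 0.13 (adjusted p = 0.734) without it. Non-overlapping groups were found for Cmpk2 alone, lower in treated rats, against 6.63% of all genes, and for 0 genes higher (5.75% of all genes). Ovariectomized replicates 2 and 3 were both below all 3 treated libraries for 10 of the 36 genes, against 12.4% of all genes. They were both above for Cmpk2 alone, against 14.1% of all genes.

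**Figure D3:**
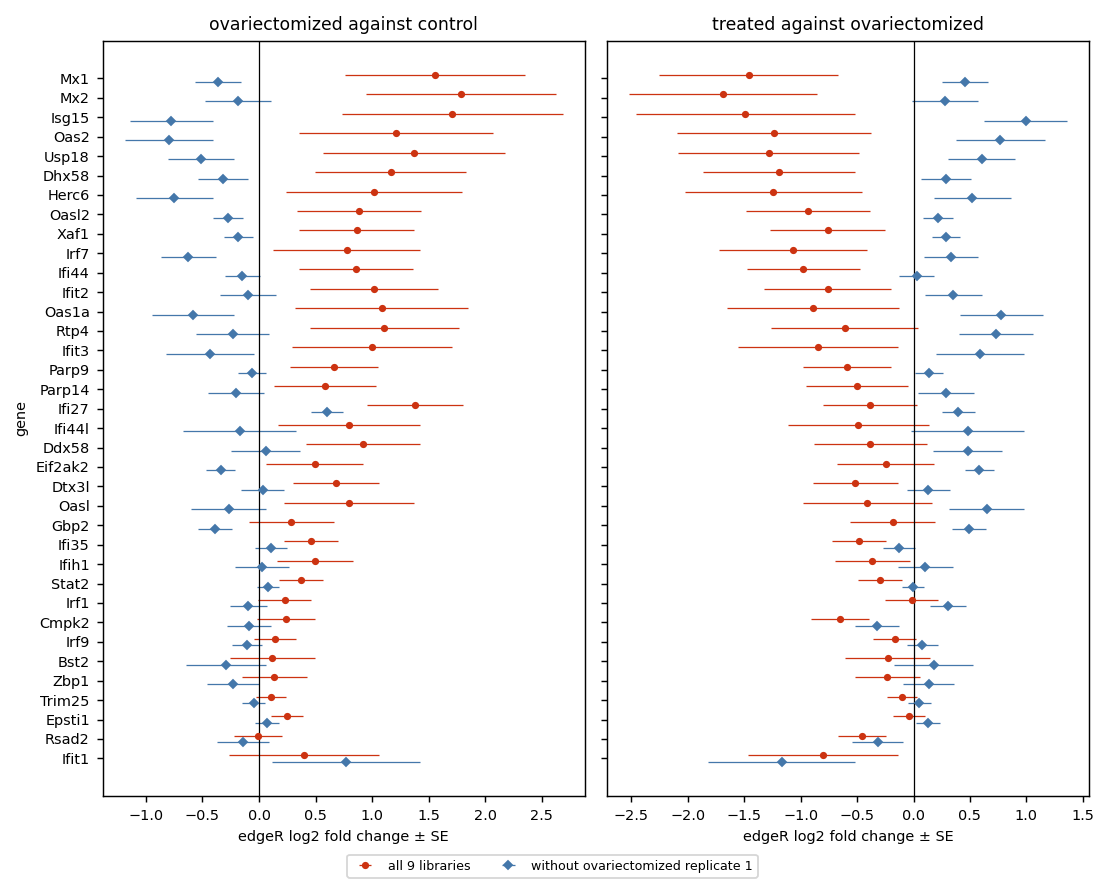
EdgeR log2 fold changes with SE (x axis) of the 36 genes (y axis) for ovariectomized rats over controls (left) and treated over ovariectomized rats (right), with all 9 libraries (circles) and without ovariectomized replicate 1 (diamonds). Leaving out that library moves the median from 0.78 to -0.18 on the left and from -0.55 to 0.29 on the right.

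In the comparison of treated with control rats the ovariectomized libraries enter through the filter, the scaling and the shared estimate of the spread. The question is what ovariectomy and herb, as the title combines them, do together. Changes were small and mixed: 23 of the 36 genes were upward and 13 downward, with a median of 0.09 against -6e-06 for all genes. None passed in edgeR, as 0% of all genes did, or, of 32, in DESeq2, against 1.1% of all genes, and 1 (Ifi27) had an unadjusted edgeR p under 0.05, against 8.81% of all genes. Without ovariectomized replicate 1 these counts were 0 at the adjusted threshold, against 0.0144% of all genes, and 2 unadjusted, against 8.69%. Groups did not overlap for Ifi27 and Epsti1, higher in treated rats (6.34% of all genes), and for Cmpk2, lower (6.78%). Epsti1, a gene first described in epithelial cells beside stroma and chosen here after its values were seen, had 42.6, 46.6 and 46.0 CPM in controls, 65.6, 46.5 and 48.2 CPM after ovariectomy, and 48.4, 59.0 and 48.2 CPM in treated rats. Treated replicate 1 was the second highest library of all 9 for 14 of the 36 genes. Treated replicate 2 was second for 9 and treated replicate 3 for 0. The share of all genes was not computed for second place. Treated replicate 3 was lowest for 7 of the 36 genes, against 10.4% of all genes tested.

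The interferon genes themselves were at or near 0. Of 12 listed interferons, 11 had a row and 0 passed the filter, and 8, Ifnb1 and Ifna1 among them, had no count in any library. A count of 0 allows up to 3 counts, or 0.0451 to 0.0546 CPM in these libraries, and counting error is all that this limit covers. Ifng had 10 counts (0.158 CPM) in ovariectomized replicate 1 and 0 in the other 8 libraries. The receptor gene Ifnar1 varied little and had 140, 139 and 137 CPM in controls, 136, 143 and 144 CPM after ovariectomy, and 139, 140 and 148 CPM in treated rats. Ifnar2 and Ifngr1 had 39.1 and 115 CPM in ovariectomized replicate 1, inside the 33.8 to 44.2 CPM and 86.1 to 138 CPM of the other 8.

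Of 14 listed genes that lead from sensing to interferon production, 5 were highest in ovariectomized replicate 1, against 9.58% of all genes tested. For 0 of the 14 was that library over 1.5 times the next, against 0.792% of all genes. Ddx58, Ifih1, Dhx58 and Irf7, described above, were not on this list. Negative regulators were split: the DNase Trex1, the RNA editor Adar and the nucleotide hydrolase Samhd1 were 1.70, 1.79 and 1.52 times the next library, while Socs1 and Socs3 were at 1.02 and 0.88 times.

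Further interferon-stimulated genes outside the 37 symbols went the same way. Of 32 that passed the filter, 28 were highest in ovariectomized replicate 1 and 16 were over 1.5 times the next library, and the list summed to 4362 CPM there and to 2008 to 2617 CPM elsewhere. Their median log2 fold change for ovariectomized against control rats was 0.31 with that library and -0.13 without it, and 0 passed in each of the 3 comparisons. Antigen presentation and interferon gamma genes were nearer to the rest, with 19 of 26 highest in that library and 2 over 1.5 times the next, Cxcl10 (8.002 CPM against 0.824 to 4.35) and Irgm (41.3 CPM against 10.7 to 16.3). The membrane genes Ifitm1 and Ifitm2 were not highest there, at 70.1 CPM against 34.98 to 134 CPM and 171 CPM against 136 to 231 CPM. Genes of NF-kB and acute inflammation showed 5 of 13 highest in that library and 0 over 1.5 times the next. Of all genes tested, 9.58% were highest in that library and 0.792% were over 1.5 times the next.

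Ubd, a ubiquitin-like gene on the interferon gamma list, had a different order. It had 0.518, 0.698 and 0.686 CPM in controls, 1.69, 1.45 and 1.21 CPM after ovariectomy, and 1.94, 2.02 and 2.85 CPM in treated rats. The 3 groups did not overlap. Of all genes tested, 5.02% had ovariectomized above control libraries without overlap, 5.75% treated above ovariectomized and 6.34% treated above control. Ubd was named by the rule of small edgeR p within its list. Its ovariectomized replicate 1 did not stand apart from the group. Its log2 fold changes were 1.19 ± 0.25 (SE; edgeR adjusted p = 0.892) for ovariectomized and 1.84 ± 0.25 (adjusted p = 0.340) for treated against control rats, and 0.65 ± 0.24 (adjusted p = 0.929) between treated and ovariectomized rats. DESeq2 called Ubd in the first pair of comparisons, with adjusted p = 0.0446 and 6.09e-06.

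The genes outside the list with the most similar library pattern were taken by the ratio of ovariectomized replicate 1 to the highest other library, leaving out placeholder symbols. The first were Ly6e, a membrane protein that modulates virus entry (172 CPM against 18.3 to 44.6 CPM in the other 8 libraries), Apol9a (16.1 against 2.37 to 4.34 CPM) and Rnf213, a large antimicrobial ubiquitin ligase (401 against 69.2 to 114 CPM). Oas1g, Siglec1, Cxcl17, Samd9, Znfx1, Irgm, Parp12, Slfn4, Ube2l6, Ifi27l2b, C7 and Oas3 followed at 3.36 to 2.06 times. Ly6e, Samd9, Znfx1, Parp12, Ifi27l2b and Oas3 were already counted above among the further interferon-stimulated genes, and Irgm among the interferon gamma genes. Siglec1, a macrophage receptor for sialic acid, had 58.6 CPM against 8.92 to 18.3 CPM, and Ube2l6, the conjugating enzyme of Isg15, had 42.5 CPM against 9.98 to 19.6 CPM. Slfn4, a Schlafen family gene of myeloid cells, had 1976 CPM against 323 to 867 CPM.

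Markers of cells that make or answer interferon were summed in each library. Macrophage markers were highest in ovariectomized replicate 1 for 6 of 9 genes that passed the filter and summed to 1258 CPM there, with 985.3 to 1078 CPM in controls, 711.4 to 1258 CPM in ovariectomized and 894.0 to 1071 CPM in treated rats; Marco was at 0 throughout. B cell and plasma cell markers, with 2 of 8 highest there, summed to 1764 CPM, with 1396 to 1665 CPM in controls, 1379 to 1764 CPM in ovariectomized and 1315 to 1647 CPM in treated rats. Of all genes tested, 9.58% were highest in that library. The part of macrophages, B cells and plasma cells in the high values was not tested. Plasmacytoid dendritic cell markers summed to 380.2 CPM in that library, below all others but 1, and T and natural killer cell markers to 294.9 CPM, inside the 180.7 to 330.9 CPM of the other 8.

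**Figure D4:**
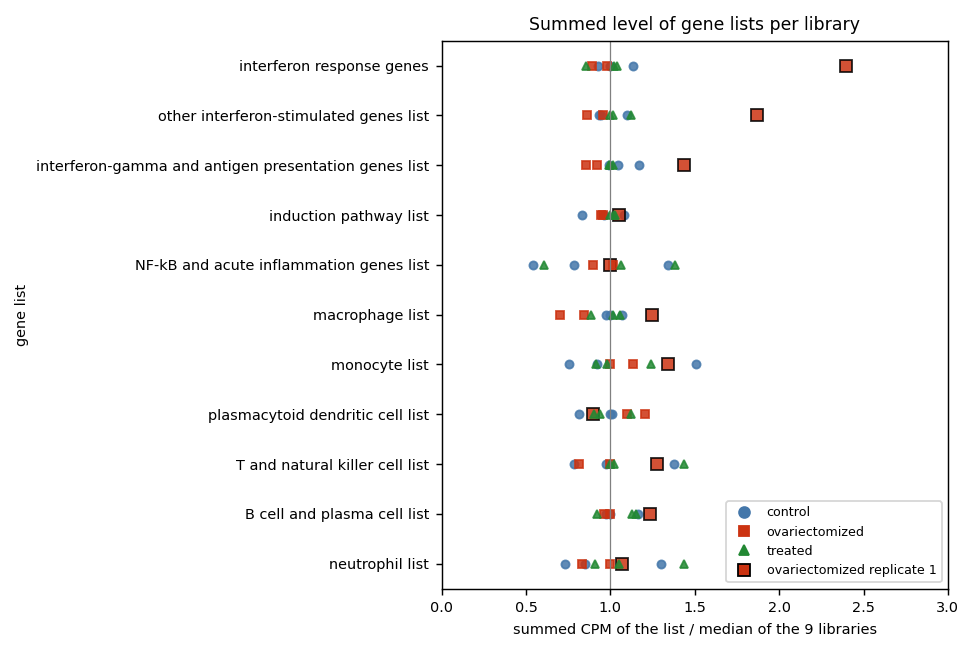
Summed CPM of each gene list divided by its median over the 9 libraries (x axis), 1 point per library, with ovariectomized replicate 1 outlined in black. That library is furthest from the others for the interferon response genes (4496 CPM) and the other interferon-stimulated genes (4362 CPM), and of the other lists drawn it is also the highest for interferon gamma genes, macrophages, and B and plasma cells.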

How the data were processed

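Whole-number counts per gene and FPKM values per gene were deposited by the authors in 1 table, per the file headers; the authors' FPKM is per gene length and library, and is 0.0001 where the count is 0. Per the submitters' processing notes fastp, HISAT2 and StringTie were used; no version, genome build or counting step is named there, and the counts were treated as unscaled. Rows averaging 1 FPKM or more were tested with edgeR 4.0.16 (R 4.3.3): TMM factors, 1 quasi-likelihood fit over 9 libraries, contrasts between 3 groups, Benjamini-Hochberg adjustment over all 13886 genes, threshold 0.05. DESeq2 1.42.0 and limma 3.58.1 on log2(FPKM + 1) were alternatives, beside other filters, scaling and pseudocount, leave-one-out fits, a replicate block and fits to only the groups compared. The common biological coefficient of variation was 0.262. On data simulated for ovariectomized against control rats the edgeR step recovered 59 of 100 genes changed 2-fold and 84 of 100 changed 4-fold. It made 9 false calls among 13886 genes. Recovery was not computed for the interferon response genes, most of which peaked in ovariectomized replicate 1. Their SE in this comparison ran from 0.13 (Trim25) to 0.98 (Isg15). The simulated shares therefore do not tell how often a change in those genes would be called. The smallest chi-square per degree of freedom between replicates was 79.6, so no pair agreed within sampling noise. No label says that replicate numbers pair the libraries. Correlations of same-numbered deviations ran from -0.13 to 0.18 and of differently numbered ones from -0.17 to 0.14. Correlations this weak from so few libraries cannot exclude a pairing. Python 3.11.15 and matplotlib 3.10.9 drew the figures.

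The members, gene lists and comparisons were chosen with earlier results of these data known. Genes given in full were named by rule: the 12 largest ratios of ovariectomized replicate 1 to the highest other library, all genes not highest in that library, and always Mx1, Isg15, Irf7, Irf9, Stat2, Irf1, Usp18, Ddx58, Ifih1, Bst2 and Eif2ak2, with Ifnar1, Ifnar2, Ifngr1, Ifnb1, Ifng, up to 4 genes of each pathway list by smallest edgeR p, and the 15 non-members of largest ratio. Cmpk2, Ifi27, Epsti1, Trim25, Zbp1, Ifit3, Adar, Socs1, Cxcl10, Ifitm1 and Ifitm2 were added after their values were seen. Marker lists of 13 cell types and 7 pathway lists were counted, without a set test; 1 listed gene and 1 motif are not reported here. Counts overlapping copies or antisense genes are uncertain, because no source names the use of strand.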

Additional observations from a re-analysis of the deposited data

How the results depend on the processing

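No interferon response gene passed the adjusted threshold in any of the 3 comparisons with any alternative, although DESeq2 gave no p to 4 of them. Among the other genes named, Ubd was called by DESeq2 alone, at log2 fold changes of 1.19 and 1.84 for ovariectomized and for treated against control rats. The median log2 fold change turned when 1 library, ovariectomized replicate 1, was left out: for ovariectomized against control rats leaving out single libraries gave -0.18 to 1.11, and for treated against ovariectomized rats -0.80 to 0.29. Without that library 27 of the 36 genes turned in the first of these comparisons and 31 in the second. Ranges over single libraries were computed for a few of them; the lowest and the highest value were -0.36 and 2.02 (Mx1), -0.78 and 2.23 (Isg15), -0.63 and 1.17 (Irf7), and -0.34 and 0.79 (Eif2ak2) for ovariectomized against control rats. For treated against ovariectomized rats they were -1.93 and 0.45 (Mx1), -2.01 and 0.995 (Isg15), -1.47 and 0.33 (Irf7), -0.66 and 0.40 (Ifi27) and -0.55 and 0.58 (Eif2ak2). Rsad2 in ovariectomized against control rats lay near 0 and turned to 0.018 with the replicate block, to 0.056 with limma on log2(FPKM + 1), to 0.057 with limma on log2(FPKM + 0.1), and to -0.15 to 0.23 without single libraries. With those limma settings Eif2ak2 in treated against ovariectomized rats turned to 0.027 and 0.039. With the replicate block the medians of the 36 genes were 0.44, -0.43 and 0.03 in the 3 comparisons, ovariectomized against control rats first and treated against control rats last, and with limma on log2(FPKM + 1) 0.43, -0.29 and 0.15, against 0.78, -0.55 and 0.09 in edgeR. For ovariectomized against control rats Mx1 was at 0.92 with the block and 0.75 with limma, and Isg15 at 0.70 and 0.58. Over all genes tested, edgeR called 0 in each comparison and DESeq2 59, 38 and 153 in that order. With only the groups compared edgeR called 2, 1 and 1. The cause of these differences was not tested. Depth was no limit for the 36 genes, the lowest count being 148, but was for the interferon ligands.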

Other observations

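Ifit1 was the gene, of 13886 tested, with the largest lead of control replicate 1 and ovariectomized replicate 3 over the highest of the other 7 libraries, at 2.33 times; this pattern was looked for after its values were seen. Stfa2l1 (8.26 and 6.51 CPM against 0 to 3.84 CPM) and Sync (5.48 and 5.503 CPM against 1.89 to 3.48 CPM) held ranks 3 and 4, and no other interferon response gene was among the first 10.

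Ifi27l2b, the neighbour of Ifi27 on chromosome 6 (127336305 to 127337791), did not share the order of groups seen for Ifi27. It had 78.9, 20.02 and 45.4 CPM in controls, 175, 53.0 and 16.2 CPM after ovariectomy, and 82.6, 40.3 and 26.9 CPM in treated rats, with overlap between all groups.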
